A study of Mus musculus with 16 samples.

Results

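Long reads that fell inside annotated genes without following their splice junctions were examined gene by gene in R6/2 and non-transgenic mouse brain. TALON, the program that sorted the reads, places a read in its Genomic class when the read overlaps an annotated gene but joins none of that gene's known exons in the known way. Members were the annotated genes that held at least 20 Genomic reads when all 16 samples were summed, so they were chosen by their summed read count, which is given here only as a description. They numbered 6761 of 24003 annotated genes with any read (28.2%), and 17470 genes held at least 1 Genomic read. The members held 759473 of the 821678 Genomic reads in annotated genes (92.4%).

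The samples were cortex and striatum of 3-month-old male mice, with 4 R6/2 and 4 non-transgenic (NT) animals' samples in each region. R6/2 mice carry a transgene with exon 1 of the human huntingtin gene and an expanded CAG repeat on a mixed B6CBA background, and NT samples came from animals without the transgene. All samples were bulk polyA RNA, treated with an exonuclease that degrades RNA with a free 5′ phosphate, amplified as cDNA and read on the PacBio Iso-seq platform. The labels name separate samples of each group but not how many animals gave RNA to each, so p-values measure the spread between these samples. In bulk tissue, fewer cells of a type and less RNA per cell cannot be told apart.

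Most mammalian transcripts begin as a pre-mRNA in which long introns separate short exons, and the introns are removed before the polyadenylated mRNA leaves the nucleus. Reads of the Genomic class can come, among other sources, from unspliced pre-mRNA, from an intron, from an unannotated single-exon RNA or from genomic DNA carried through the preparation, and transcript filters often set the class aside. Counts alone cannot tell such sources apart. The models came without coordinates, so whether a read lay in an exon or an intron was not known. In the brain, genes for synaptic adhesion and scaffold proteins have some of the longest introns, whereas striatal projection neurons, the cells lost first in Huntington's disease, are known by a small set of signalling genes such as Ppp1r1b and Pde10a.

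Genomic reads made up 7.81% of 10519014 reads in annotated genes, and each library held 252885 to 1496196 reads in all and 21028 to 84233 Genomic reads. The reads were spread over 129338 transcript models, 97.2% of which had a single exon, and single-exon models held 99.1% of the Genomic reads. Models from 1000 to under 2000 nt took 31.8% of the reads and models from 2000 to under 4000 nt took 33.7%. Another 15.9% fell on models from 2 to under 500 nt, 13.3% on models from 500 to under 1000 nt and 3.65% on models of 4000 nt or more. A further 2134 models were listed with a length of 1 nt, and they held 13132 reads (1.60%).

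The striatal samples did not form 1 set. Striatal NT 1, NT 2, R6/2 2 and R6/2 3 each had 2 files, which were summed, whereas the other 4 striatal samples and all cortical samples had 1 file. Unannotated models of all classes numbered above the highest model number with a read in the other 12 libraries came to 82911, and all of them had reads in the 1-file striatal libraries. Of the Genomic reads in those 4 libraries, 12.7% lay on models that no other library used, and 21.2% of the Genomic reads in the other 12 libraries lay on models that those 4 did not use. Mitochondrially encoded reads made up 1.29 to 2.87% of the 1-file striatal libraries, 0.384 to 0.801% of the 2-file libraries and 0.30 to 0.527% of the cortical libraries. Each file set held 2 samples of each genotype. Gene-level genotype tests therefore had the number of files as a term, whereas genotype permutation tests of library values pooled both file sets. Every regional value below is given for both file sets.

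The Genomic share of a library's reads in annotated genes followed the number of files more closely than region or genotype. In cortex the share was 9.45, 6.98, 9.40 and 8.53% in NT 1 to 4 and 9.38, 8.97, 7.51 and 7.62% in R6/2 1 to 4. In striatum it was 5.80, 5.88, 11 and 13% in NT 1 to 4 and 8.88, 6.09, 5.28 and 11.9% in R6/2 1 to 4. The 2-file striatal libraries were all below every cortical library, and 3 of the 4 1-file libraries were above every cortical library.

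The 2-file libraries averaged 5.76% ± 0.346 (SD, n = 4), which was 5.42 percentage points below the 11.2% ± 1.73 (n = 4) of the 1-file libraries (two-sided exact permutation p = 0.0286, the smallest that 4 against 4 allows, and 0.114 after Benjamini-Hochberg adjustment over 12 library comparisons). When the 2 files of a sample were counted apart, the shares were 5.39 and 6.15% in NT 1, 5.72 and 6.04% in NT 2, 5.81 and 6.29% in R6/2 2, and 4.74 and 5.64% in R6/2 3. Each file alone therefore lay in the low range. Against the cortex (8.48% ± 0.984, n = 8), the 1-file striatum was 2.70 percentage points higher (exact permutation p = 0.0101) and the 2-file striatum was 2.72 points lower (exact permutation p = 0.00202). Both p-values are unadjusted and lie outside the 12 library comparisons, and the 2-file comparison was not planned beforehand. All striatal samples averaged 8.47% a difference of -0.00731 points from the cortex (exact permutation p = 0.996), a value that mixes these opposite differences.

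Genotype differences in the library share were smaller than the spread between samples. In cortex R6/2 averaged 8.37% ± 0.945 and NT 8.59% ± 1.15 (n = 4 each, exact permutation p = 0.857). In striatum R6/2 averaged 8.03% ± 3.0 and NT 8.91% ± 3.63 (n = 4 each, exact permutation p = 0.743), with differences of -1.59 points among 1-file samples and -0.156 points among 2-file samples. These striatal SDs and this p-value pooled both file sets. The difference between the regional genotype effects was also within the spread (permutation p = 0.787). Genomic reads came from models of 1873 nt on average in 2-file libraries and 1516 nt in 1-file striatal libraries. The exact permutation p was 0.0286, and 0.114 after Benjamini-Hochberg adjustment. The other reads differed the same way, with mean model lengths of 2192 and 1769 nt, so the difference was not particular to the Genomic class. For Genomic reads the R6/2 and NT means were 1696 and 1787 nt in cortex (exact permutation p = 0.114) and 1639 and 1749 nt in striatum (exact permutation p = 0.486). The striatal test pooled both file sets. Among 1-file samples R6/2 1 and 4 had 1434 and 1489 nt, and NT 3 and 4 had 1593 and 1547 nt. Among 2-file samples R6/2 2 and 3 had 1802 and 1832 nt, and NT 1 and 2 had 1907 and 1950 nt. R6/2 thus lay below NT without overlap in each file set, which was not tested.

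**Figure D1:**
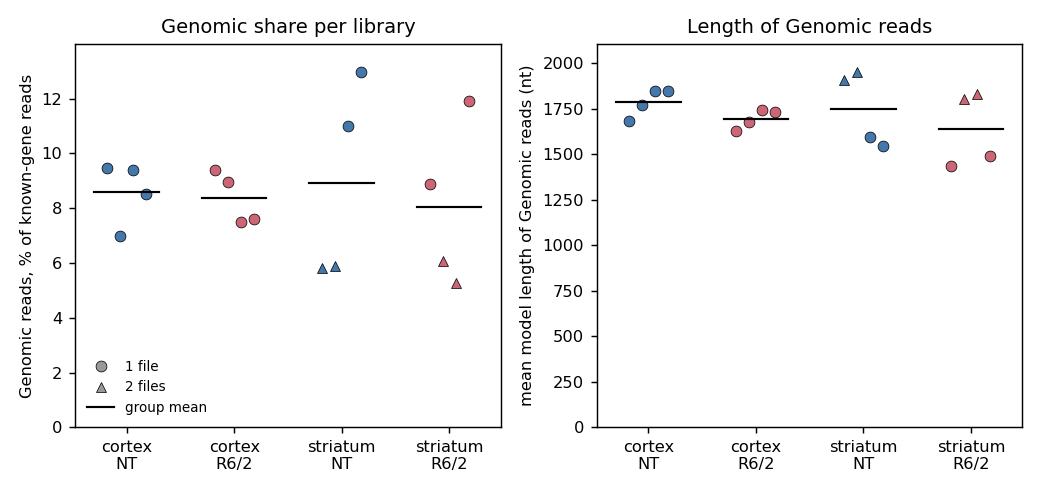
Share of Genomic reads among a library's reads in annotated genes (percent, left) and mean length of the models that hold those reads (nt, right), by group of 4 samples; circles are samples with 1 file, triangles are samples with 2 files and bars are group means. The 4 triangles lie between 5.28 and 6.09% on the left, below all circles, and on the left the means of R6/2 and NT differ by less than the SD within each group.

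Within members the share of Genomic reads ran from 0.0692% to 100%, with a median of 21.7% and an interquartile range of 8.55 to 47.3%. At least 50% of the reads were Genomic in 1600 members (23.7%) and at least 90% in 391 (5.78%), while 164 members had no other read and 1007 were below 5%. Genomic reads were present in all 16 samples for 2638 members. Protein-coding members (6341) had a median share of 19.8%, below the 96.2% of 154 annotated antisense RNAs, the 63.9% of 114 long intergenic noncoding RNAs and the 60.3% of 80 processed transcripts. No mitochondrially encoded gene was a member.

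The threshold itself cut through genes of all shares. Just inside, at 20 Genomic reads, 1110019D14Rik had a share of 37.7%, 1500035N22Rik 35.1% and 1700029J07Rik 54.1%. Just outside, at 19 reads, 1190002N15Rik had 38.8%, 1300002E11Rik 12.3% and 1700028N14Rik 100%. The 173 genes at 20 reads had a median share of 10.9% and the 194 genes at 19 reads had 9.77%.

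The reads were concentrated in some genes and scattered in others. The gene with most Genomic reads held 5.26% of them, the first 10 genes 9.07% and the first 100 genes 22.9%. A member had a median of 53 Genomic reads on 8 models, and its most used model took a median of 54.8% of them. In 1072 members 1 model took at least 90% of the Genomic reads, whereas in 800 members no model took 20%.

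Shares rose with the length of introns in the annotation, a property that did not choose the members. In the 792 members with under 5 kb of intron the median share was 11.8% and the median number of models was 2. The medians were 13.1% from 5 to 20 kb (1495 members), 16.7% from 20 to 50 kb (1581), 24.5% from 50 to 100 kb (1216) and 30.9% from 100 to 300 kb (1172). In the 490 members with over 300 kb of intron the median share was 56.0%, the reads lay on a median of 59 models and the most used model took a median of 13.3%. Genes with much intron thus carried Genomic reads on many models with no single one dominating.

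Because a member needed 20 Genomic reads, the same was read over every gene with at least 100 reads of any class. There the median share ran from 1.34% under 5 kb (1985 genes) through 3.65, 7.69, 14.8 and 23.0% to 53.6% above 300 kb (440 genes). Across members, Spearman's rank correlation was 0.31 between the share and intronic length, 0.88 between the number of models and intronic length, and -0.72 between the share and the gene's total reads. These values describe 6746 genes matched to the annotation, which share libraries and are not independent. The value of -0.72 is partly set by the rule, since 20 Genomic reads force a high share in a member with few reads in all.

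**Figure D2:**
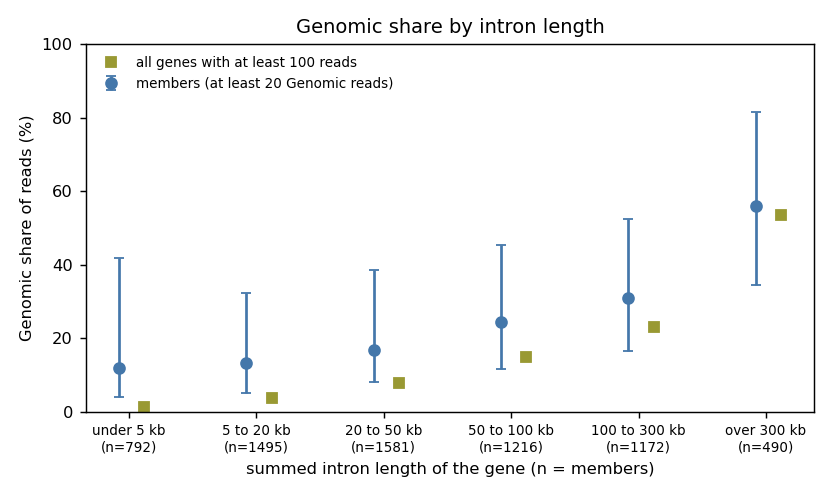
Median share of Genomic reads (percent) in 6 bins of annotated intronic length (kb) for members, with bars for the interquartile range, and for all genes with at least 100 reads. The members' medians go from 11.8% in the shortest bin to 56.0% in the longest, and those of all genes with at least 100 reads from 1.34 to 53.6%.

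The members with the most Genomic reads were of different kinds. Cfap77, which encodes a protein of the ciliary and flagellar axoneme, held 39926 Genomic reads of 39950 (99.9%), and 1 model of 181 nt took 99.9% of them (chromosome 2, 28926949 to 29055066, minus strand of mm10, for the whole gene). Its span also holds 1 other annotated gene on the same strand. Glp2r, the receptor of glucagon-like peptide 2, had 6983 of 6995 reads in the class (99.8%), mainly on a model of 1792 nt (chromosome 11, 67661502 to 67771153, minus strand). Almost no read of either gene fell in another class.

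The other genes of that rank ranged from low to high shares. Mbp, the myelin basic protein gene, had 2957 Genomic reads of 99261 (2.98%), and Apoe, the main brain apolipoprotein, had 2923 of 152973 (1.91%). Meg3, an imprinted nuclear noncoding RNA, had 3263 of 11295 reads in the class (28.9%). Celf2, which encodes a splicing regulator of neurons, had 2702 of 3236 (83.5%) on 290 models. Nisch, the imidazoline-receptor-like gene nischarin, had 2447 of 3861 (63.4%), but 97.6% of them lay on 1 model of 1182 nt. Ntm, a neural cell adhesion gene with long introns, had 2296 of 2551 on 182 models. The processed pseudogene Gm15459 had 2587 of 69384 (3.73%) and is uncertain, since near-identical copies can exchange its reads.

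Among members with at least 100 reads, the 10 highest shares were all 100%. The genes were the processed pseudogene Gm4149 with 568 reads on a main model of 183 nt, the antisense RNAs RP24-349L11.1 (453), Gm20659 (405), Gm26724 (355) and Gm15738 (195), the intergenic noncoding RNA Gm26733 (188), Gm20417 (154), Gm44511 (150), and the protein-coding genes Kctd16 (311) and Mpp4 (153). Kctd16, an auxiliary subunit of GABA-B receptors, had its reads on 74 models, whereas Mpp4, a membrane scaffold gene, had a main model of 1896 nt. Antisense genes overlap other genes, and the full-length reads were oriented by strand before assignment.

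Gene lists placed these shares by function. All 24 long-intron genes of the synapse and cell surface were members, with a median share of 84.7% (40.9 to 99.3%), 22 of 24 at 50% or more, and 30607 Genomic reads in all. Nrg3, a neuregulin ligand, had 1194 Genomic reads of 1203 (99.3%) on 282 models. Lsamp, a limbic adhesion protein gene, had 2147 of 2251 (95.4%) on 547 models, and Ptprd, a receptor phosphatase of synapses, had a share of 84.1% on 550 models, the highest number of any member.

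The other neuronal lists lay lower. Of 17 cortical excitatory neuron genes 14 were members, with a median share of 57.0% (7.28% in Nrn1 to 93.6% in Egr3). Of 25 striatal projection neuron genes 22 were members, with a median of 16.4%. Ppp1r1b (DARPP-32), Penk (enkephalin) and Ngef had shares of 1.31, 0.928 and 0.752%, while Bcl11b, the transcription factor that specifies these neurons, had 67.6%, Scn4b, a sodium channel subunit, 63.4% and Pde10a, the striatal phosphodiesterase, 48.9%.

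Genes of RNA processing were mostly low. Of 36 splicing regulators and genes known for detained introns, 30 were members with a median share of 6.10%, from 1.63% in Srsf5 to 83.5% in Celf2, and 2 of the 30 reached 50%. Of 17 nuclear and imprinted noncoding RNAs 11 were members with a median of 28.9%. Snhg14, the long transcript of the Prader-Willi region, had 77.0%, whereas Malat1 had 138 of 61650 (0.224%). Of 14 genes for huntingtin and the m6A machinery 9 were members with a median of 19.9%, and huntingtin itself (Htt) had 35 of 176 reads in the class (19.9%) on 15 models. Of 13 immediate early genes 3 were members, and Egr1 had 483 of 498 (97.0%). None of the 15 mitochondrially encoded genes was a member.

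The share was then compared between groups with a quasi-likelihood test in edgeR on the ratio of Genomic to other reads of each gene, over 8477 genes that had at least 10 reads of each kind, 6332 of them members. Adjusted p-values are Benjamini-Hochberg values over all of them, and a change is the log2 of the ratio of Genomic to other reads. For R6/2 against NT no gene passed in cortex (0 of 8477, percent called 0.00, with 365 at an unadjusted p under 0.05) and none in striatum (0, percent called 0.00, with 424). DESeq2 called 0 in each, with 175 and 200 at an unadjusted p under 0.05. The genotype effect differed between regions in 0 genes (319 at an unadjusted p under 0.05, DESeq2 0 and 155). No member of any of the 8 lists passed in either region. On simulated counts this test recovered 0 of 100 2-fold changes in either region, and 5 (cortex) and 15 (striatum) of 100 4-fold changes. A missing call thus does not show that the shares were alike.

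The member with the smallest p in cortex, Kalrn, shows what lay below the threshold. Kalrn encodes kalirin, a guanine nucleotide exchange factor of dendritic spines. Its Genomic share was 37.5, 39.2, 45.9 and 31.0% in cortical NT 1 to 4 and 75, 68.9, 63.0 and 57.7% in R6/2 1 to 4, and these did not overlap. The ratio differed by 1.73 ± 0.43 on the log2 scale (edgeR adjusted p = 0.43). The Genomic counts were alike, with 33, 29, 17 and 31 reads in NT and 33, 31, 34 and 15 in R6/2, while the other reads were 55, 45, 20 and 69 in NT and 11, 14, 20 and 11 in R6/2. The level of those other reads fell by 2.171 ± 0.248 on the log2 scale (edgeR adjusted p = 3.2e-07). When each class was scaled by its own library total, Kalrn was the only gene called in cortex, with a change of 1.76.

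In striatum the members with the smallest p for the share were Ogfrl1 (2.20), Rock1, a kinase gene (2.37), and Prdx2, a cytosolic peroxiredoxin (3.08), all at an edgeR adjusted p of 0.42. None passed.

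Genotype was next compared in the level of Genomic reads alone, that is, a gene's Genomic reads as CPM of its library's Genomic reads after TMM scaling (Genomic CPM below). This comparison was added after the share test had been seen. In striatum 97 of 9277 genes passed (percent called 1.05), 31 of them higher in R6/2 (0.334) and 66 lower (0.711). Members made up 94 of the 97, with 30 higher and 64 lower, and in 81 of the 94 the R6/2 and NT values did not overlap within either file set. DESeq2 called 52, 3 of them higher. In cortex 12 genes passed (percent called 0.129), with 2 higher (0.0216) and 10 lower (0.108). All 12 were members and 11 did not overlap, and DESeq2 called 1. Overlap was looked at only in called members, so these counts are no separate evidence of a change. Levels of the other reads passed in 1.26 percent of genes in cortex and 3.11 percent in striatum.

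The striatal projection neuron list fell in R6/2 striatum. Of its 22 members 10 were lower and 0 higher, 21 of 22 had a negative change, and the median change was -1.18 on the log2 scale, against 0.07 over all genes tested. The 10 were Adcy5, Arpp19, Arpp21, Kcnip2, Pde10a, Pde1b, Pdyn, Penk, Ppp1r1b and Scn4b. The list was drawn up with earlier results of these data known, so its direction is not independent evidence. The 6 striatal projection neuron markers, all detected, summed to 7993 to 12993 CPM among the other reads in NT striatum and 1601 to 3169 CPM in R6/2 striatum. The part of this marker difference in the Genomic result was not tested.

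Scn4b had the largest fall in the list. Its Genomic CPM was 769, 384, 502 and 436 in striatal NT 1 to 4 and 54.9, 54.1, 119 and 18.8 in R6/2 1 to 4, so all R6/2 samples were below all NT samples. It fell by 3.03 ± 0.38 on the log2 scale (edgeR adjusted p = 2.8e-11), and its other reads fell by 2.91 ± 0.53 (edgeR adjusted p = 0.00043).

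Pde10a, which hydrolyses cyclic nucleotides in striatal neurons, had a Genomic CPM of 2307, 2560, 2697 and 2101 in NT striatum and 823, 721, 814 and 470 in R6/2 striatum. It fell by 1.78 ± 0.23 in Genomic reads (edgeR adjusted p = 2.8e-11), and its other reads fell by 2.14 ± 0.22 (edgeR adjusted p = 1.6e-08). The groups did not overlap. In cortex its Genomic CPM was 334, 228, 272 and 572 in NT and 367, 429, 544 and 453 in R6/2, which overlapped.

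Ppp1r1b, the phosphatase inhibitor DARPP-32 that relays dopamine signals, had 427, 486, 664 and 1460 Genomic CPM in NT striatum and 165, 144, 99.2 and 244 in R6/2 striatum. It fell by 2.14 ± 0.30 (edgeR adjusted p = 4.9e-09). Penk, the enkephalin precursor of the indirect pathway, had 620, 755, 420 and 359 in NT and 91.5, 180, 159 and 113 in R6/2 striatum. It fell by 1.98 ± 0.33 in Genomic reads (edgeR adjusted p = 1.3e-06), and its other reads fell by 2.99 ± 0.21. Every R6/2 striatal sample was below every NT sample for both genes.

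Arpp19, an endosulfine-family inhibitor of protein phosphatase, was lower in both regions. It had 790, 461, 1505 and 794 Genomic CPM in NT striatum and 219, 216, 139 and 169 in R6/2 striatum, a fall by 2.21 ± 0.29 (edgeR adjusted p = 4.5e-11). In cortex it had 308, 257, 350 and 343 in NT and 77.3, 143, 75.1 and 26.6 in R6/2, a fall by 1.92 ± 0.43 (edgeR adjusted p = 0.016). The groups did not overlap in either region. The cortical call was lost without NT 4 (adjusted p = 0.066), R6/2 1 (0.098), R6/2 3 (0.077) or R6/2 4 (0.15), whereas the striatal call held without each sample.

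The rest of the list moved less or was measured less well. Kcnip2 fell by 1.53 ± 0.31 and Pde1b fell by 1.1 ± 0.23, and both calls held without each of the 8 samples. The calls of Adcy5 (-1.84), Arpp21 (-0.93) and Pdyn (-1.25) held in 4, 4 and 3 of the 8 omissions. Among members that did not pass were the dopamine receptor genes Drd1 (-0.86 ± 0.33, edgeR adjusted p = 0.23) and Drd2 (-1.10 ± 0.58, 0.51), the adenosine receptor gene Adora2a (-1.61 ± 0.47, 0.056), Rgs9 (-1.25 ± 0.38, 0.069) and Foxp2 (0.09, 0.97).

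**Figure D3:**
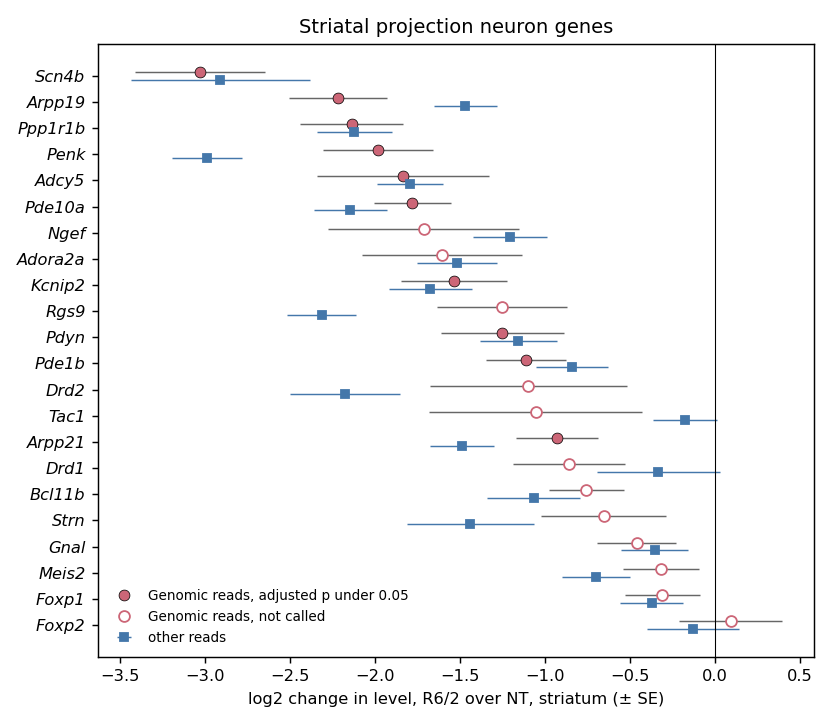
Change of R6/2 over NT in striatum (log2, ± SE) for 22 members of the striatal projection neuron list, in Genomic reads (circles, filled where the edgeR adjusted p is under 0.05) and in other reads (squares). All circles but that of Foxp2 are below 0, and 10 are filled, from -3.03 for Scn4b to -0.93 for Arpp21.

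The other lists showed fewer calls between genotypes. Over all genes tested 0.711 percent were lower in R6/2 striatum and 0.108 percent in R6/2 cortex, with median changes of 0.07 and 0.12. Of the 14 cortical excitatory members, Camk2n1, an inhibitor of the kinase CaMKII, and Egr3 were lower in R6/2 striatum and 0 passed in cortex, with list medians of -0.28 and -0.44. Camk2n1 had 449, 666, 895 and 1255 Genomic CPM in NT striatum and 329, 252, 198 and 226 in R6/2 striatum, and these did not overlap. It fell by 1.65 ± 0.28 (edgeR adjusted p = 2.9e-06), and its other reads fell by 2.32. Of the 24 long-intron genes, Opcml (-0.90 ± 0.23, edgeR adjusted p = 0.018) and Rbfox1 (-0.78 ± 0.22, 0.042) were lower in R6/2 striatum, and 0 passed in cortex, with list medians of -0.09 and 0.19. Each of these 2 calls held in 5 of 8 omissions. In the splicing list 0 of 30 passed in either region, with medians of 0.52 in cortex and 0.39 in striatum. The change was positive in 25 of the 30 in cortex and in 23 in striatum.

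Ddn was the cortical gene with the firmest change. It encodes dendrin, a protein of dendritic spines whose mRNA is carried into dendrites, and 96.8% of its reads were Genomic (chromosome 15, 98803777 to 98809490, minus strand). Its Genomic CPM was 2954, 1426, 2177 and 2127 in cortical NT and 425, 787, 507 and 533 in cortical R6/2. In striatum it was 2008, 2957, 1220 and 973 in NT and 512, 901, 833 and 489 in R6/2. The genotypes did not overlap in either region. Genomic reads fell by 1.96 ± 0.25 in cortex (edgeR adjusted p = 5.6e-11) and by 1.36 ± 0.24 in striatum (edgeR adjusted p = 7.5e-06), and both calls held without each sample. Its few other reads did not pass (-0.37 ± 1.04 in cortex, -0.92 ± 0.69 in striatum).

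The remaining cortical calls were less firm. Lower in R6/2 were Pitpnm2 (-2.21), Gsg1l (-1.97), Per3, a circadian repressor (-1.73), and Slc43a2, an amino acid transporter (-1.30), and higher were Chd9, a chromatin remodeller (1.33 ± 0.30, edgeR adjusted p = 0.016), and Mpp4 (1.80 ± 0.45, 0.046). Mpp4 had 25.7, 57.0, 77.7 and 160 Genomic CPM in cortical NT and 271, 215, 394 and 293 in R6/2, with no overlap. Its call held in 2 of 8 omissions and Chd9's in 3 of 8. Leaving out cortical R6/2 1 left 2 genes called in cortex, R6/2 3 left 4, and NT 4 or R6/2 4 left 5 each.

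Higher Genomic reads in R6/2 striatum included those of Prdx2, whose other reads did not pass, and those of Cfap77. Almost no read of Cfap77 fell in another class, so its other reads cannot serve as a comparison. Prdx2 had 0, 0, 13.6 and 25.6 Genomic CPM in NT striatum and 128, 90.1, 139 and 169 in R6/2 striatum, on 2 reads in NT and 28 in R6/2. It rose by 3.59 ± 0.75 (edgeR adjusted p = 0.00043, and DESeq2 adjusted p = 0.095), while its other reads changed by 0.17 ± 0.18. Cfap77 had 40891, 25576, 59356 and 9120 in NT and 151424, 94832, 86176 and 54556 in R6/2 striatum, which overlapped only through NT 3 and R6/2 4. It rose by 1.52 ± 0.35 (edgeR adjusted p = 0.0031, and DESeq2 adjusted p = 0.87), and the call was lost without NT 4 (1.18, 0.068) or R6/2 1 (1.108, 0.10).

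Cfap77 was 0.396 to 12.7% of the Genomic reads of a library. In cortex its Genomic CPM was 29563, 32191, 8784 and 4163 in NT and 50060, 49722, 39772 and 26915 in R6/2, and it did not pass (1.16 ± 0.35, edgeR adjusted p = 0.23). The cortical groups overlapped as well. Cck, the cholecystokinin gene, passed in R6/2 striatum (1.05 ± 0.30, edgeR adjusted p = 0.045) with 1 sample far above the rest. Its Genomic CPM was 491, 38.4, 461 and 333 in NT and 476, 487, 119 and 1711 in R6/2, and without R6/2 4 the change was 0.29 (adjusted p = 0.89). The call held in 3 of 8 omissions.

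Cd4, a T cell co-receptor gene, was among the lower genes in R6/2 striatum. It had 128, 64.0, 380 and 743 Genomic CPM in NT and 36.6, 36, 0 and 75.2 in R6/2, where NT 2 lay below R6/2 4. It fell by 2.94 ± 0.49 in Genomic reads (edgeR adjusted p = 1.9e-06), and its other reads fell by 2.75. Choroid plexus markers reached 8804 CPM of other reads in striatal NT 3 and at most 299 in the R6/2 striatal samples, and 60 genes passed in striatum without NT 3. Astrocyte markers, 5 of 5 detected, summed to 2048 to 3356 CPM in cortical NT and 1261 to 1703 in cortical R6/2, and their part in the cortical calls was not tested.

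**Figure D4:**
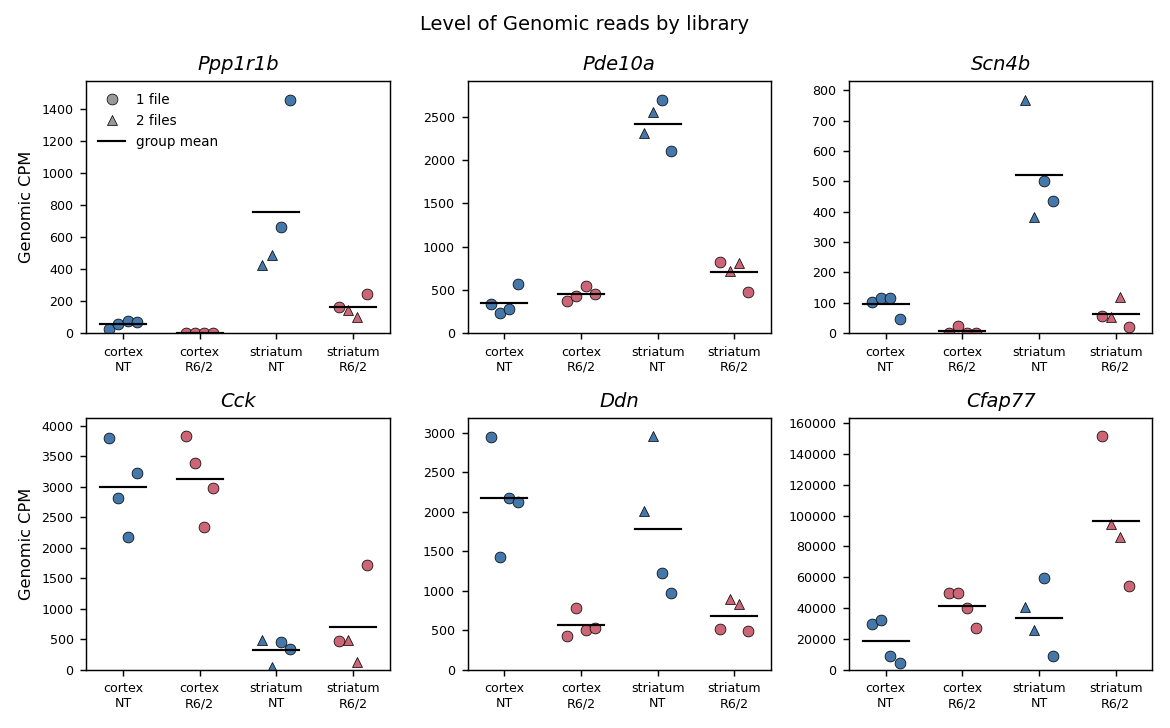
Genomic CPM, a gene's Genomic reads scaled to the library's Genomic reads by TMM (1 panel for each gene), in the 4 samples of each group, for Ppp1r1b, Pde10a, Scn4b, Cck, Ddn and Cfap77. The striatal genes are lower in R6/2 than in NT striatum, Ddn is lower in R6/2 in both regions, and Cck stands out in 1 R6/2 striatal sample at 1711.

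Between regions the level of Genomic reads differed for listed striatal and cortical neuron genes in both file sets. In 2-file striatum against cortex 626 of 9277 genes passed (percent called 6.75, with 3.90 higher and 2.85 lower), and in 1-file striatum 926 passed (9.98, with 5.58 higher and 4.40 lower). Members made up 595 (348 higher, 247 lower) and 875 (489 higher, 386 lower). Of the 22 striatal list members 19 were higher in 2-file striatum (median 1.97) and 19 in 1-file striatum (median 2.37), against 0.12 and 0.07 over all genes. These comparisons share the cortical samples. The 6 striatal markers summed to 90.9 to 442 CPM of other reads in cortex and the 4 cortical excitatory markers to 92.2 to 138 CPM in cortex and 0 to 35.0 in striatum, so the labelled regions carried their own markers.

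Penk and Rgs9, a regulator of G protein signalling in striatum, had the largest regional differences among listed genes. Penk had a lowest, median and highest Genomic CPM of 0, 0 and 57.0 in cortex (n = 8) and 159, 400 and 755 in 2-file striatum (n = 4), a difference of 5.15 ± 0.54 (edgeR adjusted p = 3.3e-18), and 4.37 ± 0.61 for 1-file striatum. For Rgs9 the differences were 4.46 ± 0.70 and 4.87 ± 0.66. Oligodendrocyte markers summed to 9640 to 25884 CPM in NT striatum, 11335 to 16956 in R6/2 striatum and 2847 to 6598 in cortex, and Genomic reads of Mbp were 0.97 ± 0.20 higher in 2-file and 1.10 ± 0.20 higher in 1-file striatum. The part of oligodendrocyte RNA in this was not tested.

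Cortical genes went the other way. Of the 14 cortical members 9 were lower in 2-file striatum (among them Camk2a, Camk2n1, Cux2, Neurod2, Neurod6, Nptx1, Nrn1 and Slc17a7, list median -1.52) and 8 in 1-file striatum (list median -1.62). Over all genes tested 2.85 and 4.40 percent were lower, with median changes of 0.12 and 0.07. Slc17a7, the vesicular glutamate transporter of cortical neurons, had 290, 373 and 822 Genomic CPM as lowest, median and highest in cortex and at most 126 in any striatal sample. It was lower by -3.38 ± 0.39 in 2-file striatum (edgeR adjusted p = 6.8e-15) and -3.79 ± 0.42 in 1-file striatum. Cck was lower by -3.57 ± 0.26 and -2.16 ± 0.22, with 2177, 3105 and 3828 as lowest, median and highest in cortex.

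The long-intron genes did not move as 1 group between regions. In 2-file striatum 8 of 24 were higher than in cortex and 5 lower (median 0.20), where 3.90 percent of all genes were higher and 2.85 percent lower. In 1-file striatum 6 were higher and 8 lower (median -0.00), where 5.58 and 4.40 percent of all genes were. Those higher in both included Grm5, a metabotropic glutamate receptor (0.83 in 2-file and 0.59 in 1-file striatum), Cntnap2 (0.72 and 0.80), Fgf14 (0.68 and 0.60) and Rbfox1. Those lower in both included Nrg3 (-1.08 and -1.52), Dlgap1, a postsynaptic scaffold (-1.02 and -1.35), Ptprd (-1.0 and -1.44) and Pde4d (-0.86 and -1.0). Nrg3 had 1205, 2285 and 2932 Genomic CPM as lowest, median and highest in cortex and 814, 1006 and 1496 in 2-file striatum, so the ranges overlapped. Without striatal NT 3 the 1-file calls of Grm5 (0.43, adjusted p = 0.28), Fgf14 (0.51, 0.14) and Rbfox1 (0.36, 0.40) were lost, and without striatal NT 2 the 2-file calls of Pde4d (-0.68, 0.11) and Fgf14 (0.62, 0.067).

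Members of the noncoding RNA and immediate early lists also differed. Dlx6os1, transcribed in GABAergic neurons, was higher in striatum (1.40 ± 0.39 in 2-file and 1.19 ± 0.41 in 1-file samples). Miat was lower (-1.63 ± 0.38 and -3.08 ± 0.48), as was the immediate early gene Egr1 (-1.02 ± 0.23 and -1.29 ± 0.24). The Dlx6os1 call was lost without striatal R6/2 3 in 2-file (1.23, adjusted p = 0.085) and, among others, without striatal NT 3 in 1-file samples (0.86, 0.34).

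The share of Genomic reads between regions depended on the file set. In 1-file striatum 727 of 8477 genes differed from cortex (percent called 8.58), 674 with a higher share (7.95) and 53 with a lower share (0.625). In 2-file striatum 635 differed (7.49), 22 higher (0.260) and 613 lower (7.23). Members made up 678 of the first (632 higher, 46 lower) and 606 of the second (21 higher, 585 lower). Between the file sets 2043 genes differed (24.1), 2013 of them lower in 2-file striatum (23.7) and 30 higher (0.354), and 1827 were members, of which 1359 had no overlap between the file sets. Here too overlap was looked at only in called members and is no separate evidence. The median change over all genes tested was 0.57, -0.57 and -1.15 on the log2 scale in these 3 comparisons, and the overall shares of the libraries differed in the same directions.

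When each class was scaled by its own library total, which sets the overall shares equal, 341 genes were higher and 107 lower in 1-file striatum, 120 higher and 210 lower in 2-file striatum, and 132 higher and 442 lower in 2-file against 1-file striatum. Changes of single genes below are as counted and are to be read beside that shift.

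**Figure D5:**
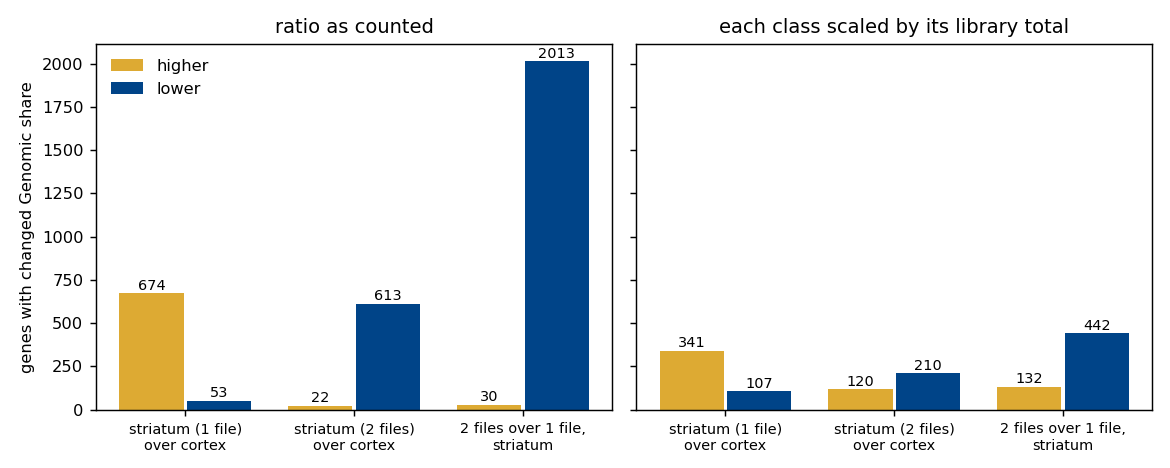
Number of genes with a higher or lower share of Genomic reads (edgeR adjusted p under 0.05) in 1-file striatum against cortex, 2-file striatum against cortex, and 2-file against 1-file striatum, with the ratio taken as counted or with each class scaled by its own library total. As counted the bars are 674 and 53, 22 and 613, and 30 and 2013, and after scaling 341 and 107, 120 and 210, and 132 and 442.

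Vamp2, the synaptobrevin of synaptic vesicles, had a lower share in striatum in both file sets. Its Genomic reads lay on 1 model of 2209 nt, and its share had a lowest, median and highest value of 38.2, 55.6 and 85.7% in cortex (n = 8), 24.8, 28.3 and 30.6% in 1-file striatum (n = 4) and 3.27, 6.25 and 12.9% in 2-file striatum (n = 4), with no overlap between the 3 sets. The ratio was lower by -1.71 ± 0.36 in 1-file (edgeR adjusted p = 0.00018) and -4.19 ± 0.36 in 2-file striatum (edgeR adjusted p = 5.8e-28). The level of its other reads was higher by 1.45 ± 0.24 and 3.03 ± 0.21, and that of its Genomic reads lower by -0.67 ± 0.22 (edgeR adjusted p = 0.029, lost in 8 of 16 omissions) and -0.63 ± 0.22 (0.055). Most of the difference in share thus lay in the other reads.

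Plec and Dock3 had a higher share in striatum in both file sets, against the shift in the 2-file samples. Plec, the cytolinker plectin, had 1.82, 6.20 and 8.54% as lowest, median and highest in cortex, 17.1, 22.1 and 36.5% in 2-file striatum and 23.0, 36.9 and 46.7% in 1-file striatum. The ratio was higher by 2.34 ± 0.44 (edgeR adjusted p = 1e-05) and 2.94 ± 0.52 (2.9e-06). Its other reads were lower by -1.68 ± 0.20 and -2.11 ± 0.23, while its Genomic reads were higher by 1.24 ± 0.34 in 2-file striatum (0.98, adjusted p = 0.15 without R6/2 3) and differed by 0.36 ± 0.39 in 1-file striatum.

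Dock3, a neuronal activator of Rac, had 12.4, 14.2 and 20% in cortex, 28.7, 36.4 and 46.3% in 2-file striatum and 30.5, 44.7 and 57.7% in 1-file striatum. The cortical and striatal values did not overlap. The ratio was higher by 1.64 ± 0.34 (edgeR adjusted p = 0.0001) and 2.08 ± 0.37 (2.3e-06), and its other reads were lower by -1.35 ± 0.18 and -1.61 ± 0.20. Without reads of the incomplete-splice-match class among the other reads, the 2-file difference was 0.78 (adjusted p = 0.27).

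Pde10a, whose Genomic reads were more abundant in striatum, had a lower Genomic share there. The ratio was lower by -2.45 ± 0.41 in 2-file striatum and -1.37 ± 0.42 in 1-file striatum (edgeR adjusted p = 0.018). The 1-file call was lost without striatal NT 3 (-1.29, adjusted p = 0.055) or R6/2 4 (-1.23, 0.091). Its shares were 61.5 to 100% in cortex and 36.3 to 66.1% in striatum, which overlapped. Of the striatal list, 7 members had a lower share in 2-file striatum (Arpp21, Bcl11b, Foxp1, Gnal, Kcnip2, Pde10a and Pde1b, list median -1.14), where 7.23 percent of all genes were lower with a median of -0.57, and in 1-file striatum Arpp19 and Meis2 were higher and Pde10a lower.

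For several of the genes with most Genomic reads the file set decided the sign or the call. Nisch had shares of 43.9, 53.0 and 73.0% as lowest, median and highest in cortex, 74.4, 85.0 and 95.9% in 1-file striatum and 32.2, 47.0 and 52.1% in 2-file striatum, with a ratio higher by 2.24 ± 0.35 in the first (edgeR adjusted p = 2.8e-08) and -0.70 ± 0.33 in the second (0.19). Ntm had 57.8, 84.8 and 89.1% in cortex, 94.9, 98.1 and 98.6% in 1-file and 85.7, 88.4 and 94.9% in 2-file striatum. Meg3 passed in opposite directions, with 0.99 ± 0.33 in 1-file striatum (edgeR adjusted p = 0.04) and -0.96 ± 0.33 in 2-file striatum (0.048), as did Apoe with 1.55 ± 0.35 (0.0004) and -1.07 ± 0.35 (0.035). Mbp had a lower share in 2-file striatum (-2.12 ± 0.35, edgeR adjusted p = 2.1e-07) and -0.19 ± 0.35 in 1-file striatum. Meg3's 1-file call held in 8 of 16 omissions (0.71, adjusted p = 0.23 without striatal NT 4) and its 2-file call in 1 of 12 (-0.81, 0.22 without NT 1), and Apoe's 2-file call was -0.72 (0.30) without striatal NT 2. For these genes region and file set cannot be told apart.

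In the splicing list 6 of 30 members had a higher share in 1-file striatum than in cortex (among them Ddx5, Hnrnpu, Luc7l2, Rsrp1 and Snrnp70), where 7.95 percent of all genes were higher, and in 2-file striatum Luc7l3 was higher and Celf1 lower. Between file sets 11 of the 30 were lower in 2-file striatum, where 23.7 percent of all genes were lower, and Son was higher. In the m6A list Fto and Mettl14, of 9 members, had a lower share in 2-file striatum. The list median of -0.56 was near the -0.57 of all genes tested, of which 7.23 percent were lower. The Genomic level of Zc3h13 was lower in both file sets (-1.22 in 2-file and -1.07 in 1-file striatum), where 2.85 and 4.40 percent of all genes were lower. Htt had Genomic counts of 3, 0, 0 and 1 in cortical NT, 3, 2, 2 and 0 in cortical R6/2, 7, 6, 4 and 0 in striatal NT and 0, 1, 1 and 5 in striatal R6/2. It passed no test of share or Genomic level, and at 0 to 7 reads a sample a difference was not detectable.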

How the data were processed

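PolyA RNA of 16 mouse cortex and striatum samples was sequenced by PacBio Iso-seq. Per the study's methods the authors made full-length reads with the PacBio software, mapped them to mm10 with minimap2 (version 2.17-r941), corrected them with TranscriptClean and assigned them with TALON. The deposited values are raw read counts per transcript model, unfiltered, in 20 files. The cDNA was amplified by PCR without molecular identifiers, so reads are not independent molecules. The 2 files of 4 striatal samples were summed.

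Genomic counts were summed by annotated gene name. Members and gene lists were chosen with earlier results of these data known. Intronic length and gene positions came from the GENCODE M21 annotation of mm10 (6746 members matched). Genes with at least 10 Genomic and 10 other reads entered the share test, an edgeR (4.0.16) quasi-likelihood fit with 2 columns per library, library terms, class by group and class by number of files. It gives 1-file striatum against cortex, and the 2-file contrast was added after seeing the data, as was the level test (TMM, at least 10 Genomic reads). DESeq2 (1.42.0) was an alternative, and R was 4.3.3, Python 3.11.15 and SciPy 1.17.1. Two-sided exact permutation tests were used for library values, pooling both file sets for genotype in striatum, and 0.05 was the adjusted p threshold. Named genes were the 10 highest shares among genes with at least 100 reads, the 10 with most Genomic reads, up to 6 called members in each direction per contrast, list members and genes at the threshold. Tests were checked on simulated counts, with 100 genes changed 2-fold and 100 changed 4-fold. The genotype share test recovered 0 of the 2-fold changes, and 5 (cortex) and 15 (striatum) of the 4-fold changes. The share test of 1-file striatum against cortex recovered 1 and 23, and that of the file sets 0 and 8. The genotype level test recovered 4 and 44 in cortex and 7 and 55 in striatum. Antisense and intergenic Genomic reads were not used here. Results of some genes that met these rules are not reported here.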

Additional observations from a re-analysis of the deposited data

Results flagged for a closer look

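Dixon's test was run on the per-sample shares of the genes with most Genomic reads. It was also run on each library's Genomic share, mean length of Genomic reads and single-exon share. Together 4 of 52 groups of 4 samples were marked, where chance marks about 1 in 20, and all 4 were gene shares. Glp2r had a share of 99.8% in striatal NT 1, apart from the other 3 NT striatal samples. Almost all reads of Glp2r over the samples were Genomic, so very few other reads set this value. Apoe had 0.955% in cortical NT 3. The pseudogene Gm15459 had 0.0761% in cortical NT 4 and 0.12% in cortical R6/2 1. No cause was tested.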

How the results depend on the processing

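The library values that compared all striatal samples with cortex had no stable sign. The share difference of -0.00731 points became 0.119 without mitochondrially encoded genes, 0.408 on models used by both sets of libraries, 2.70 with 1-file and -2.72 with 2-file striatum. The mean length difference became 8.07 nt without the 10 genes of most Genomic reads, -226 nt with 1-file and 131 nt with 2-file striatum, and the single-exon share difference 0.125 and -0.310 points. Calls of changed share went to 1 gene in each region for genotype when each class was scaled by its own total, and to 448 in 1-file striatum, 330 in 2-file striatum and 574 between file sets. With DESeq2 they were 409, 319 and 1330. Without the files term striatum against cortex gave 33 genes, and 31 from the first file alone. DESeq2 gave 1, 52, 305 and 469 genes for the level in cortex, striatum, 2-file and 1-file striatum, and omitting the files term gave 1 in cortex and 52 in striatum, 11 of them higher. Single values that changed sign were the share changes of Ogfrl1 in 1-file striatum alone (-0.025, genotype), Meg3 from the first file alone (-0.20), and Kcnip4 without incomplete splice matches (-0.51). The causes were not tested.

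Leaving out each sample in turn moved the genotype difference of the library share from -0.758 to 0.0664 points in cortex and from -2.16 to 0.474 in striatum, striatum against cortex from -0.648 to 0.449, and the file sets from -6.19 to -4.83, with an exact permutation p of 0.0571 without striatal R6/2 3. Mean lengths ranged from -125 to -67.6 nt in cortex, -177 to -41.6 in striatum, -83.6 to -9.87 between regions and 330 to 383 between file sets. Single-exon shares ranged from -0.0373 to 0.0221, -0.245 to -0.0518, -0.141 to -0.0467 and -0.479 to -0.393 points. Share calls ranged from 0 to 0 in cortex, 0 to 1 in striatum, 402 to 767 in 1-file striatum (402 without striatal R6/2 4, 475 without NT 4), 408 to 677 in 2-file striatum (408 without R6/2 3, 421 without NT 1) and 1356 to 2002 between file sets (1356 without R6/2 4). Level calls ranged from 2 to 12, 60 to 126 (60 without striatal NT 3), 403 to 622 in 2-file striatum (403 without NT 2) and 676 to 955 in 1-file striatum.

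The labels do not tie replicate numbers to a shared animal or batch, and not every same-numbered pair's deviations correlated above 0.1, so the numbers were not taken to pair the samples. The correlations were -0.06 to 0.19 between genotypes in cortex and -0.23 to 0.45 between regions. Between genotypes in striatum they were 0.46 and 0.61 where both samples had the same number of files and -0.58 and -0.38 where they had not, so file set and pairing cannot be told apart there. With the replicate block, share calls were 182 in 1-file striatum, 152 in 2-file striatum and 173 between file sets, and level calls were 12 in cortex, 71 in striatum, 449 in 2-file and 728 in 1-file striatum. Depth limits the share test, which needs reads of both classes in a gene.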
